A study of Mus musculus with 5 samples.

Results

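The nuclear-encoded subunits of the mitochondrial respiratory chain, with the Ndufaf assembly factors of complex I, were compared between mouse samples labelled tumor and lung. Members were chosen by gene symbol alone, as symbols that begin with Nduf, Uqcr or Atp5, the 4 Sdh genes, and Cox4 to Cox8 genes, leaving out 11 symbols marked as pseudogenes with -ps. The rule found 97 genes among 55250 table entries with a gene symbol. They fell into 36 subunits of complex I, 4 of complex II, 8 of complex III, 11 of complex IV, 17 of complex V, 8 assembly factors, 8 tissue isoforms or paralogs, and 5 copies or related genes. Cyc1 and the 13 subunits encoded by mitochondrial DNA lie outside the symbol rule and are given separately.

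The libraries were 2 from tumor (labelled with numbers 2 and 3) and 3 from lung (labelled 1, 2 and 3), all wild type, all labelled as primary mouse PMN-MDSCs, polymorphonuclear myeloid-derived suppressor cells, a name for cells of the neutrophil lineage with suppressive effects on T cells. Each came from at least 2000000 sorted cells, and 20000000 paired reads are stated per library. The strain, age and sex of the mice, the tumor model, the sort markers and whether libraries came from separate animals are not stated in the labels, so p-values reflect only how far these 5 libraries spread, and that spread may be technical. Expression was in TPM, a length-corrected share that sums to 1000000 in each library and keeps no read depth.

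The tumor libraries went against their label. Transcripts of 8 neutrophil markers summed to 1086 and 3713 TPM in tumor libraries 2 and 3, against 46601, 54986 and 34589 TPM in lung libraries 1, 2 and 3. Likewise 20 pan-leukocyte genes summed to 1044 and 2751 TPM in tumor and to 18732, 19675 and 17866 TPM in lung. In contrast 9 epithelial genes such as Epcam and keratins summed to 6252 and 6268 TPM in tumor and to 109, 57.7 and 57.5 TPM in lung. Every gene of these 3 lists passed the test, the neutrophil and leukocyte genes as lower and the epithelial genes as higher in tumor. The part of this difference in cell content in the results that follow was not tested. In bulk RNA fewer cells of a type and less RNA per cell cannot be told apart.

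The respiratory chain carries electrons from NADH (through complex I) and succinate (through complex II) to complex III, then by cytochrome c to complex IV, which reduces oxygen. Complexes I, III and IV pump protons across the inner mitochondrial membrane, and complex V, the ATP synthase, uses the gradient to make ATP. Most subunits are encoded in the nucleus, whereas all of the proton-pumping complexes and the ATP synthase also contain subunits made inside the mitochondrion. Complex II is wholly nuclear-encoded and also works as an enzyme of the tricarboxylic acid (TCA) cycle. Neutrophils are known for few mitochondria and a reliance on glycolysis.

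Most subunits of complexes I, III, IV and V were higher in tumor, and of complex II Sdhc alone was. Of the 97 members 89 had a mean of at least 1 TPM and were tested, 65 were higher and 2 lower in tumor, and 22 were not called (limma, Benjamini-Hochberg adjusted p under 0.05 over 16387 genes and at least 1.5-fold). Among all tested genes 31.6% were higher and 27.0% lower. The median difference was 1.14 for the tested members and 0.018 for all tested genes on the log2(TPM + 1) scale, tumor minus lung, the scale of all differences below. Tumor values lay entirely above lung values for 76 of the 89 members and entirely below for 3, against 39.9% above and 35.7% below among all tested genes. The direction is relative to all transcripts: centred on 20 pan-leukocyte genes, 87 members were higher and 0 lower while the median of all genes moved to 3.29, and centred on mitochondrial ribosomal protein genes, 2 were higher and 24 lower while that median moved to -1.41. Without tumor library 2, which leaves 1 tumor library, the median difference was 0.96 for the tested members and -0.057 for all tested genes. In the authors' deposited table, 0 of 94 members with an adjusted p were under 0.05, the lowest being 0.0634, where 23 had an unadjusted p under 0.05 and 223 of all 34930 genes had an adjusted p under 0.05.

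**Figure D1:**
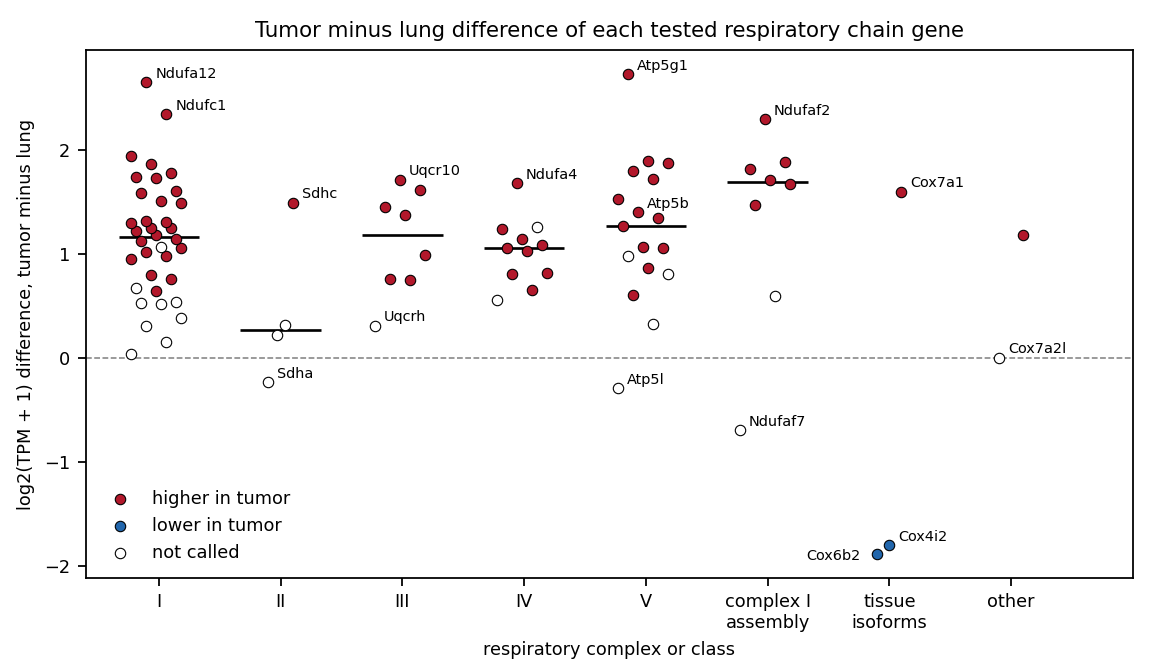
Each point is 1 of the 89 tested genes, placed by complex or class (horizontal) and by its difference in log2(TPM + 1), tumor minus lung (vertical), with filled points for called genes, open points for genes not called, and bars for the median of classes with 4 or more tested genes. Complex I, III, IV and V medians lie between 1.06 and 1.27 and that of complex II at 0.27 as TPM, but relative to mitochondrial ribosomal protein genes 55 of the 89 signs turn.

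The level of a whole complex was followed by summing the TPM of its nuclear-encoded subunits in each library. Complex I summed to 2802 and 2297 TPM in tumor libraries 2 and 3, against 1388, 1163 and 1051 TPM in lung libraries 1, 2 and 3, a ratio of means of 2.12. Complex III summed to 940.2 and 740.5 TPM in tumor and to 445, 357 and 332.5 TPM in lung, 2.22-fold higher in tumor. Complex IV, the cytochrome c oxidase, summed to 2387 and 1806 TPM in tumor and to 1207, 1129.9 and 924 TPM in lung, which is 1.93-fold. These 3 sums did not overlap between the tissues, and the exact two-sided permutation p was 0.1 for each, the smallest that 10 splits of 5 libraries can give. Complex V, the largest sum, stood at 4699.8 and 3796 TPM in tumor and 2072, 1849 and 1544 TPM in lung, a ratio of 2.33 (exact permutation p = 0.1). The Ndufaf genes, which help to build complex I, summed to only 151 and 95.3 TPM in tumor and to 60.9, 53.5 and 50.1 TPM in lung, 2.25-fold higher in tumor (exact permutation p = 0.1). Together the 97 members held 1.17% and 0.932% of TPM in the tumor libraries and 0.581%, 0.506% and 0.443% in the lung libraries. Set against the sum of mitochondrial ribosomal protein genes, the log2 difference was -0.053 for complex I, -0.20 for complex IV, -1.04 for complex II and -0.0055 for the Ndufaf genes, against 0.011 for complex III and 0.082 for complex V. For complex III the ratio to that sum was 0.306 and 0.291 in tumor and 0.329, 0.294 and 0.269 in lung, and for complex V it was 1.53 and 1.49 in tumor and 1.53, 1.52 and 1.25 in lung, so both overlapped between the tissues. The ratio of complex I overlapped too, at 0.913 and 0.904 in tumor and 1.026, 0.958 and 0.852 in lung. So did that of complex IV, at 0.778 and 0.711 in tumor and 0.892, 0.931 and 0.749 in lung. The ratio of the Ndufaf genes overlapped as well. Complex II did not overlap, at 0.158 and 0.161 in tumor and 0.344, 0.307 and 0.331 in lung.

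**Figure D2:**
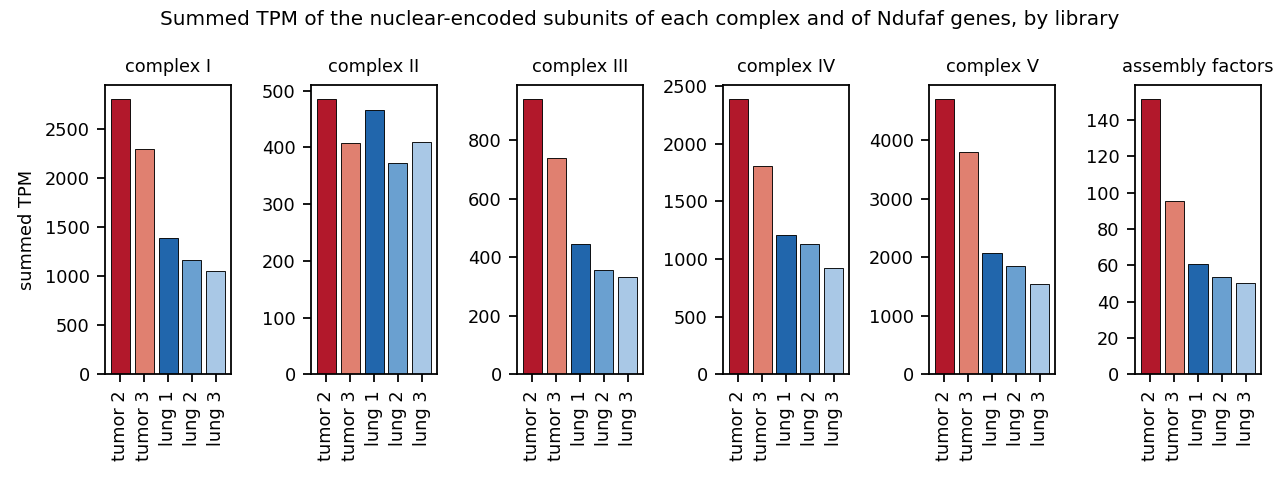
Bars give the summed TPM of each complex's nuclear-encoded subunits, and of the 8 Ndufaf genes, in each library, tumor libraries in red and lung libraries in blue, each panel on its own scale from 0. The tumor bars stand above all lung bars in every panel but that of complex II, whose sums run from 372 to 485 TPM with the tissues overlapping. Heights are shares of all transcripts. Relative to mitochondrial ribosomal protein genes the log2 differences of complexes I and IV and of the Ndufaf genes are -0.053, -0.20 and -0.0055. For complexes I and IV and the Ndufaf genes those ratios overlap between the tissues.

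Complex II was the exception among these sums. Its 4 subunits summed to 485 and 409 TPM in tumor libraries 2 and 3, against 465.5, 372 and 409 TPM in lung libraries 1, 2 and 3, and the values overlapped (log2 difference 0.11, exact two-sided permutation p = 0.5; -0.018 without tumor library 2). As a share of the summed TPM of all 76 subunits, complex II held 4.29% and 4.52% in tumor and 8.35%, 7.64% and 9.60% in lung. This share is a ratio within each library, so a rescaling of a library leaves it as it is, and its exact permutation p of 0.1 is the smallest possible. The share of complex V was 41.5% and 41.95% in tumor and 37.2%, 38.0% and 36.2% in lung, while complex I held 23.9% to 25.4% in all 5 libraries. With near-identical pseudogene copies added, complex V held 38.2% and 39.0% in tumor and 35.3%, 38.5% and 36.0% in lung, which overlap. Complex II then held 3.56% and 3.77% in tumor, below its lowest share in lung, 6.58%, and its highest, 7.92%.

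Of the 4 succinate dehydrogenase subunits 1 passed the test. Sdha (chromosome 13, 74322254 to 74350280, GRCm38), the flavoprotein that oxidises succinate, had 271 and 231 TPM in tumor and 339, 252 and 299.8 TPM in lung, overlapping values with a difference of -0.23 ± 0.19 (SE; limma adjusted p = 0.331). Sdhc (chromosome 1, 171127165 to 171150603), a membrane anchor that binds ubiquinone and heme, had 97.5 and 82.5 TPM in tumor and 36.0, 28.0 and 30.2 TPM in lung. Both tumor values lay above every lung value, and Sdhc was the only called subunit of the complex (1.49 ± 0.18, adjusted p = 0.00247). The other anchor, Sdhd, had 54.3 and 47.4 TPM in tumor and 43.6, 48.4 and 38.9 TPM in lung, overlapping values (0.22 ± 0.17, adjusted p = 0.307). Sdhb, the iron-sulfur subunit that passes electrons on from Sdha, had 62.4 and 47.6 TPM in tumor and 47.2, 43.8 and 40.0 TPM in lung (0.32 ± 0.18, adjusted p = 0.194). In every library Sdha was the most abundant of the 4, at 3.80 and 3.91 times the mean of the other 3 in tumor and 8.01, 6.28 and 8.24 times in lung (exact permutation p = 0.1). Summed without Sdha, the complex had 214 and 177.5 TPM in tumor and 127, 120.3 and 109 TPM in lung, 1.65-fold higher in tumor.

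**Figure D3:**
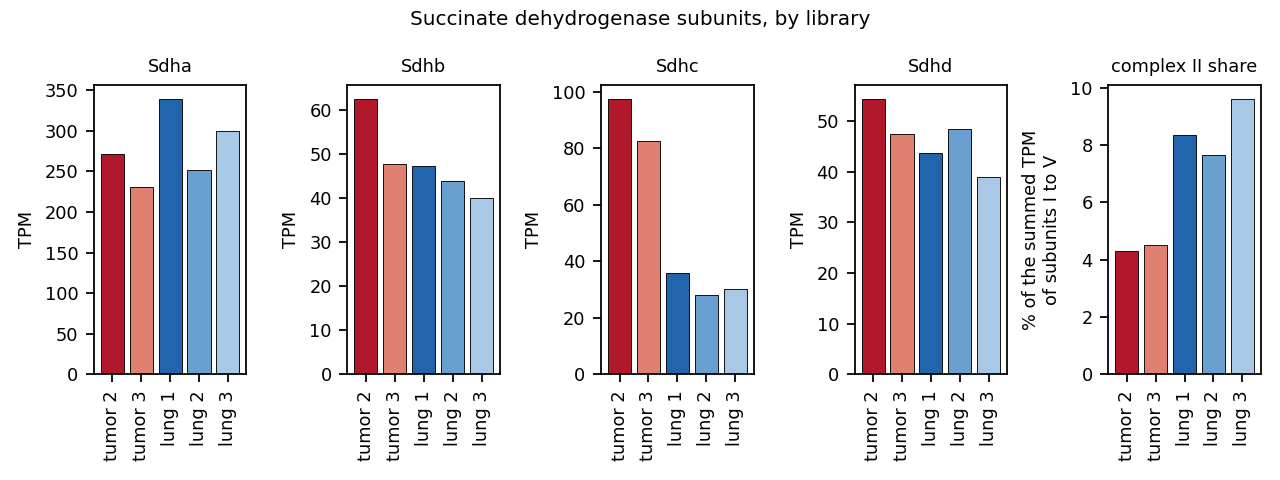
The first 4 panels give the TPM of each succinate dehydrogenase subunit in each library and the last gives the percentage of the summed TPM of subunits of complexes I to V that complex II holds, tumor libraries in red and lung libraries in blue, all axes from 0. Sdhc is higher in both tumor libraries, the other 3 were not called, and the share is 4.29% and 4.52% in tumor and 7.64% to 9.60% in lung.

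The peripheral arm of complex I takes electrons from NADH, and most of its subunits were higher in tumor. Of its 16 nuclear-encoded subunits 14 were higher, with a median difference of 1.27, and of the 20 supernumerary subunits of the membrane arm 13 were higher, with a median of 1.09. The flavin-bearing core subunit Ndufv1, which receives the electrons of NADH, had 132 and 88.6 TPM in tumor libraries 2 and 3, against 38.4, 24.1 and 34.8 TPM in lung libraries 1, 2 and 3 (1.73 ± 0.29, limma adjusted p = 0.00581). Ndufs1, the large iron-sulfur core subunit beside it, overlapped between tissues at 42.4 and 31.4 TPM in tumor and 31.1, 29.6 and 38.3 TPM in lung (0.15 ± 0.21, adjusted p = 0.558). Other core subunits were higher by 0.64 (Ndufs7) to 1.61 (Ndufs8). Ndufa12, a supernumerary subunit of the peripheral arm, was at 118 and 98.8 TPM in tumor and 24.3, 12.5 and 14.3 TPM in lung (2.65 ± 0.32, adjusted p = 0.00237). This was the widest difference in the complex, and with its near-identical copy Gm15920 added Ndufa12 was at 2.26 ± 0.18 (adjusted p = 0.00125), below Ndufc1, so that order depends on how reads were divided.

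In the membrane arm, Ndufc1 had 130.5 and 107 TPM in tumor and 21.5, 34.8 and 15.2 TPM in lung, the second widest difference of the complex (2.34 ± 0.37, adjusted p = 0.00486). Ndufa3, the most abundant subunit of complex I in these libraries, had 167 and 138 TPM in tumor and 181, 151.5 and 118 TPM in lung. Its tissues overlapped (0.039 ± 0.23, adjusted p = 0.894). The other complex I subunits not called were Ndufa6 in the peripheral arm and Ndufa1, Ndufa8, Ndufa10, Ndufb4, Ndufb9 and Ndufb11 in the membrane arm. All 7 had positive differences, from 0.31 (Ndufb4) to 1.07 (Ndufa10, 109.7 and 89.8 TPM in tumor, 25.9, 62.2 and 63.8 TPM in lung, adjusted p = 0.0921). Counted over the whole complex, 27 of 36 subunits were higher, 0 were lower, and for 32 the tumor values lay above all lung values.

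Of the 8 subunits of complex III 7 were higher and all 8 had tumor values above every lung value. Uqcr10, a small subunit, had 159.7 and 123 TPM in tumor libraries 2 and 3 and 58.0, 32.6 and 39.3 TPM in lung libraries 1, 2 and 3, the widest difference of the complex (1.71 ± 0.29, limma adjusted p = 0.00624). The most abundant was Uqcrq, another small subunit that sits close to cytochrome b, at 235 and 174 TPM in tumor and 75.1, 74.3 and 50.4 TPM in lung (1.61 ± 0.26, adjusted p = 0.00519). The core proteins Uqcrc1 and Uqcrc2 and the Rieske iron-sulfur protein Uqcrfs1, which hands electrons to cytochrome c1, were higher by 0.76, 0.75 and 0.99. Uqcrh, the hinge protein between cytochromes c and c1, was not called at 121 and 109 TPM in tumor and 94.9, 93.3 and 88.7 TPM in lung (0.31 ± 0.14, adjusted p = 0.110). Cyc1 itself, cytochrome c1, was at 105.5 and 73.0 TPM in tumor and 33.4, 18.4 and 17.3 TPM in lung, and was higher (adjusted p = 0.0075).

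For complex IV 9 of the 11 broadly expressed subunits were higher, and all 11 had tumor values above every lung value. Cox6a1, the most abundant by mean TPM without copies, had 425 and 305 TPM in tumor and 217, 245 and 162 TPM in lung (0.81 ± 0.26, limma adjusted p = 0.0435). Cox4i1, the largest nuclear-encoded subunit, had 446 and 344 TPM in tumor and 213, 188 and 137 TPM in lung (1.15 ± 0.25, adjusted p = 0.0137). Ndufa4, named for complex I but now counted with complex IV, had the widest difference among these broadly expressed subunits at 136 and 103 TPM in tumor and 43.9, 35.0 and 30.7 TPM in lung (1.68 ± 0.23, adjusted p = 0.00319). Cox5b and Cox7b were not called. Cox5b, the zinc-binding subunit, had 162.5 and 124 TPM in tumor and 108, 94.8 and 86.5 TPM in lung (0.56 ± 0.19, adjusted p = 0.0547), and Cox7b had 64.3 and 38.2 TPM in tumor and 16.1, 33.6 and 14.8 TPM in lung (1.26 ± 0.44, adjusted p = 0.0555).

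The ATP synthase makes ATP in a catalytic head turned by a ring of c subunits. Atp5b (chromosome 10, 128083273 to 128090391), the catalytic beta subunit, was the most abundant of the 97 members, at 2159 and 1741 TPM in tumor libraries 2 and 3, against 792, 737 and 674 TPM in lung libraries 1, 2 and 3 (1.40 ± 0.18, limma adjusted p = 0.00271). Atp5a1, the alpha subunit that alternates with it in equal number in the head, had 272 and 213 TPM in tumor and 112, 77.0 and 95.5 TPM in lung (1.35 ± 0.22, adjusted p = 0.0058). The ratio of Atp5b to Atp5a1 was thus 7.95 and 8.18 in tumor and 7.09, 9.57 and 7.05 in lung, with the tissues overlapping (exact permutation p = 1.0). With Atp5b left out, complex V summed to 2540.5 and 2055 TPM in tumor and to 1280.1, 1112 and 869.9 TPM in lung, a ratio of 2.11.

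All 3 genes for subunit c of the ring were higher, although they encode the same mature protein. Atp5g1 (chromosome 11, 96068852 to 96075670) showed the widest increase of the 89 tested members, with 103.5 and 71.3 TPM in tumor and 13.4, 14.0 and 9.44 TPM in lung (2.73 ± 0.26, adjusted p = 0.00162). Atp5g3, the most abundant without copies, had 176 and 150.0 TPM in tumor and 58.5, 48.0 and 40.7 TPM in lung (1.72 ± 0.21, adjusted p = 0.00242). Atp5g2 had 38.6 and 29.6 TPM in tumor and 12.3, 7.27 and 6.51 TPM in lung (1.89 ± 0.31, adjusted p = 0.00567). The log2 ratio of Atp5g1 to Atp5g3 was -0.76 and -1.07 in tumor and -2.12, -1.77 and -2.10 in lung, a shift of 1.08 toward Atp5g1 (exact permutation p = 0.1). Atp5g2 over Atp5g3 shifted by 0.26 (exact permutation p = 0.3). These ratios leave out near-identical copies, such as Gm10039 of Atp5g1. Of the TPM of Atp5g1 with its copies, Atp5g1 itself held 66.3% and 56.85% in tumor and 55.69%, 51.7% and 44.11% in lung. The ratios therefore depend on how reads were divided.

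Of the remaining complex V subunits, the peripheral stalk that holds the head in place had 3 of 4 higher, among them Atp5o (1.80), and Atp5j was not called. In the membrane part 3 of 5 small subunits were higher and Atp5k and Atp5l were not called. Atp5l, subunit g of the dimer interface, had 91.5 and 77.6 TPM in tumor and 104, 121 and 87.0 TPM in lung (-0.29 ± 0.20, adjusted p = 0.260), the only complex V subunit with a negative difference. In the head and its stalk Atp5e, the epsilon subunit, was not called at 248 and 221.5 TPM in tumor and 219, 235 and 126 TPM in lung (0.33 ± 0.31, adjusted p = 0.406).

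Of the 8 Ndufaf assembly factors 6 were higher, with a median of 1.69 over the 8. Levels were low, at most 44.8 TPM in any library. Ndufaf2 had 44.8 and 20.6 TPM in tumor and 10.9, 7.50 and 1.57 TPM in lung, the widest of the class (2.30 ± 0.75, adjusted p = 0.0474). Known as the factor that Ndufa12 replaces late in assembly, it lost its call at pseudocounts of 0.1 and 0.01 (adjusted p = 0.0555 and 0.0591), with no filter (0.0895), and under centring on the median (0.0736) or quantile normalisation (0.0764). The Ndufaf2 call was also lost without tumor library 2, tumor library 3 or lung library 2 (adjusted p = 0.270, 0.102 and 0.0861). Ndufaf1, Ndufaf4, Ndufaf5, Ndufaf6 and Ndufaf8 were higher by 1.48 (Ndufaf4) to 1.88 (Ndufaf1). Ndufaf3 was not called and overlapped. Ndufaf7, a methyltransferase, had 15.1 and 13.2 TPM in tumor and 21.2, 32.1 and 19.0 TPM in lung. The tumor values lay below all lung values, and it did not pass the test (-0.69 ± 0.26, adjusted p = 0.0726).

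Tissue isoforms replace a broadly expressed subunit in certain organs, and in complex IV they are known to alter its activity. Both members called lower in tumor were of this kind. Cox4i2 (chromosome 2, 152754173 to 152765037), known from lung and induced by low oxygen, had 0.530 and 1.28 TPM in tumor libraries 2 and 3, against 7.64, 3.99 and 5.43 TPM in lung libraries 1, 2 and 3 (-1.80 ± 0.34, limma adjusted p = 0.00859; 0.0677 and no longer called without tumor library 2). Cox6b2 (chromosome 7, 4751792 to 4753094), known from testis, had 0.223 and 1.32 TPM in tumor and 6.86, 8.97 and 2.06 TPM in lung (-1.88 ± 0.61, adjusted p = 0.0468). The Cox6b2 call was lost with no filter (adjusted p = 0.0913), without mitochondrially encoded genes (0.0559) and under quantile normalisation (0.0847), and its difference was -2.93 and -3.18 at pseudocounts of 0.1 and 0.01. Leaving out tumor library 2, tumor library 3, lung library 1 or lung library 2 also ended the Cox6b2 call (adjusted p = 0.259, 0.0941, 0.116 and 0.118). Cox7a1 (chromosome 7, 30184144 to 30186078), the heart and skeletal muscle form of Cox7a2, was higher at 6.92 and 5.97 TPM in tumor and 1.65, 1.38 and 1.33 TPM in lung (1.60 ± 0.21, adjusted p = 0.00297). The directions of Cox4i2 and Cox6b2 are relative to all transcripts. Centred on pan-leukocyte genes, their differences were 1.47 and 1.39. That centring shifts all genes alike and moved the median of all tested genes to 3.29, so both genes stayed below that median.

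Isoforms were also set against their partners within each library. The log2 ratio of Cox4i2 to Cox4i1, with 0.1 TPM added to each, was -9.47 and -7.96 in tumor and -4.78, -5.53 and -4.63 in lung, a difference of -3.74. For Cox6b2 over Cox6b1 the difference was -3.59, for Cox6a2 over Cox6a1 -2.41, and for Cox7a1 over Cox7a2 it was 1.03. Each of these 4 ratios separated the tissues, with an exact two-sided permutation p of 0.1, the smallest possible. Cox6a2, the heart and muscle form of Cox6a1, stayed at or below 0.521 TPM in every library, so its ratio rests on values near 0. With 0.01 or 1 TPM added in place of 0.1, the differences were -3.87 and -2.95 for Cox4i2, -3.84 and -2.54 for Cox6b2, -4.07 and -1.19 for Cox6a2 and 1.09 and 0.57 for Cox7a1, so each was nearer 0 with the larger constant. Ndufa4l2, a hypoxia-induced paralog of Ndufa4, had 0.494 and 1.02 TPM in tumor and 2.12, 0.452 and 0.351 TPM in lung, overlapping values, while its log2 ratio to Ndufa4 was lower by 1.72 in tumor (exact permutation p = 0.1, and 0.2 with 0.01 TPM added). Cox8b was at 0.814 TPM in lung library 1 and listed at 0 in the other 4 libraries, Cox7b2 reached 0.613 TPM at most, and Cox8c was listed at 0 throughout. Over 8 ratios of 11 pairs considered, no p can pass an adjustment with 10 splits.

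**Figure D4:**
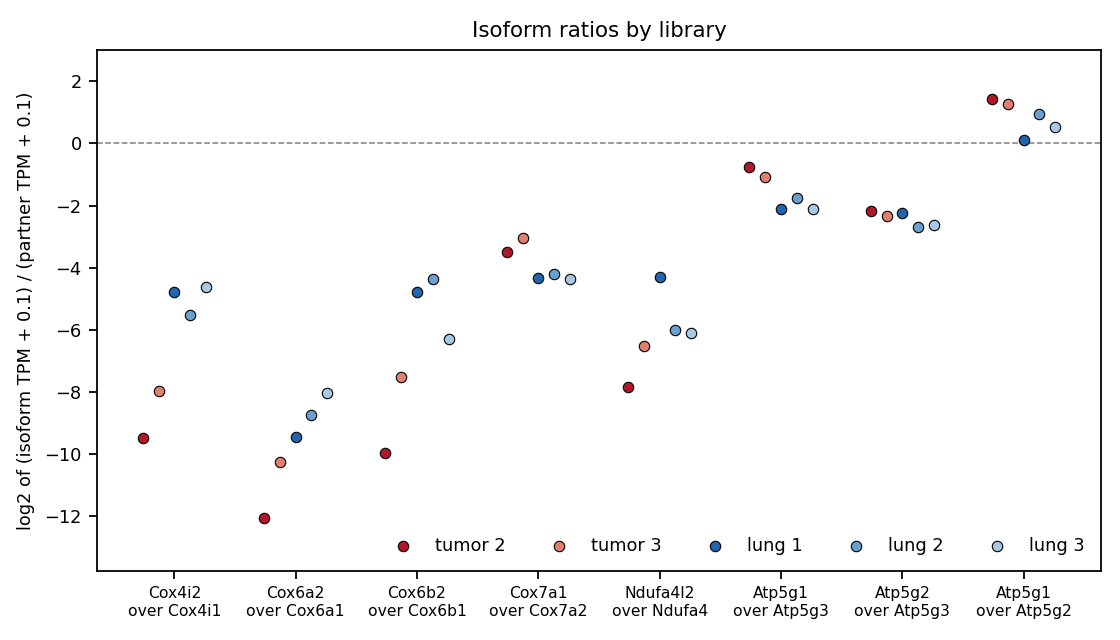
Points give, for 8 isoform pairs along the horizontal axis, the log2 ratio of isoform to partner TPM (0.1 added to each) in each library, tumor libraries in red and lung libraries in blue. Cox4i2 over Cox4i1 lies at -9.47 and -7.96 in tumor and between -5.53 and -4.63 in lung, while Cox7a1 over Cox7a2 and Atp5g1 over Atp5g3 lie higher in tumor.

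Genes known to regulate the switch between Cox4 isoforms differed as well. Hif1a, a hypoxia-inducible factor subunit, had 49.1 and 58.3 TPM in tumor and 75.6, 89.5 and 109 TPM in lung and was lower (adjusted p = 0.0301). Epas1, the related HIF-2 alpha, had 5.33 and 8.65 TPM in tumor and 193, 87.2 and 140.1 TPM in lung and was lower (adjusted p = 0.00163). Lonp1, the mitochondrial protease that degrades Cox4i1 under low oxygen in cultured mammalian cells, was higher at 37.5 and 30.5 TPM in tumor and 9.75, 6.16 and 8.78 TPM in lung (adjusted p = 0.00263). Beside these, 3 endothelial markers summed to 8.30 and 19.8 TPM in tumor and to 126, 73.0 and 106 TPM in lung, and all 3 were lower. Over the lung libraries Cox4i2, Epas1 and the endothelial sum were each highest in library 1 and lowest in library 2. Few orders of 3 libraries are possible, and 33.75% of all tested genes were highest in lung library 1. The part of endothelial transcripts in the values of Cox4i2 and these regulators was not tested. The 8 muscle markers summed to 1.60 and 4.35 TPM in tumor and 3.60, 6.35 and 5.004 TPM in lung, with Ckmt2 at 0 in all 5 libraries, beside the higher Cox7a1 in tumor.

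Many respiratory chain genes have processed pseudogenes that share their sequence, between which reads are divided by a model. A comparison of coding sequences with the GENCODE M21 transcripts found copies of at least 90% identity over at least 80% of the length for 31 members, and for 6 of them the copies held more than 10% of the member's TPM. Gm12338, identical to the Cox7c coding sequence where aligned, had 1706 and 1263 TPM in tumor and 929, 394 and 529 TPM in lung, well above Cox7c itself at 198 and 155 TPM in tumor and 83.5, 69.7 and 68.7 TPM in lung. Summed with its copies, Cox7c had 1905 and 1423 TPM in tumor and 1028, 475 and 614 TPM in lung. It was still called higher (limma adjusted p = 0.0321), and that sum stood above Cox6a1 in every library. Ndufb4 had 7.80 and 3.93 TPM in tumor and 3.77, 3.97 and 5.38 TPM in lung, whereas Ndufb4c, a pseudogene in M21 identical to its coding sequence where aligned, had 89.0 and 71.6 TPM in tumor and 49.7, 31.9 and 26.0 TPM in lung. Taken as 1 gene, Ndufb4 was called higher (1.11 ± 0.28, adjusted p = 0.0213), so its uncalled status depends on how reads were split.

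Copies also took a large part of the subunit c transcripts. Gm10175, identical to the Atp5g2 coding sequence where aligned, had 233 and 159 TPM in tumor and 65.7, 50.7 and 51.8 TPM in lung, and with this and its other copy added Atp5g2 stood above Atp5g3 in every library. The 3 genes with their copies summed to 621 and 478 TPM in tumor and 165.0, 138 and 124 TPM in lung, 3.86-fold higher in tumor. Without copies they summed to 318 and 251 TPM in tumor and 84.2, 69.2 and 56.6 TPM in lung, a ratio of 4.06. Gm10221, identical to the Atp5l coding sequence where aligned, had 188 and 191 TPM in tumor and 277, 225 and 213 TPM in lung. With its copies Atp5l stayed uncalled (-0.37 ± 0.16, adjusted p = 0.107). Summing members with their copies gave 67 members higher and 2 lower. In that count Ndufb4c was added to Ndufb4 and also kept as a member of its own. Exons of 31 members also overlap another gene, as those of Cox4i1 do with Emc8 on the opposite strand, and the labels do not say whether the libraries kept strand.

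Among the genes named other, Cox7a2l, which helps to join complexes III and IV into supercomplexes, had 85.5 and 83.5 TPM in tumor and 94.3, 83.1 and 76.9 TPM in lung and was not called (0.00085 ± 0.15, adjusted p = 0.996). The 8 members not tested were Cox6a2, Cox7b2, Cox8b, Cox8c, Ndufa4l2, Cox6c2, Ndufa11b and Ndufs6b, of which Cox6c2, Cox8c and Ndufs6b were listed at 0 in every library.

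The spread within tissues was itself shared by the members. All 76 subunits of complexes I to V had more TPM in tumor library 2 than in tumor library 3, with a median log2 difference of 0.28 between these libraries and a range of 0.019 to 0.84. Of all tested genes 7770 of 16387 did so. The 13 mitochondrially encoded subunits showed the opposite, each with more TPM in tumor library 3, by a median of 0.85 on the same scale. Tumor library 3 also had the higher sums of neutrophil and pan-leukocyte markers and tumor library 2 the higher sum of 3 fibroblast markers (241 TPM in library 2, 51.6 TPM in library 3, against 11.3, 7.42 and 6.05 TPM in lung). Their part in the spread was not tested. Among the lung libraries 72 of the 89 tested members (80.9%) were highest in library 1, as were 5530 of all 16387 tested genes (33.75%).

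**Figure D5:**
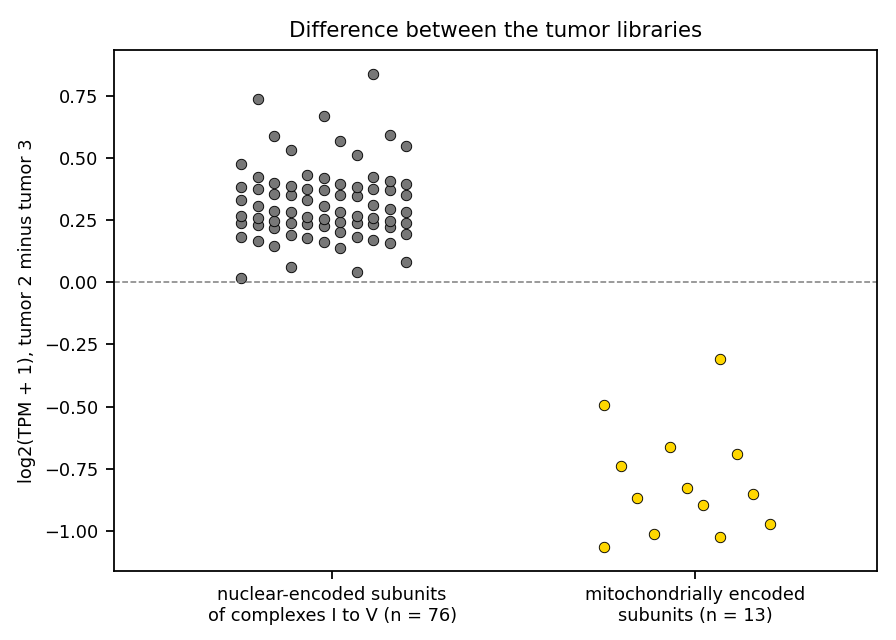
Each point is a gene, grouped on the horizontal axis as 1 of 76 nuclear-encoded subunits of complexes I to V or 1 of 13 mitochondrially encoded subunits, and placed by its log2(TPM + 1) in tumor library 2 minus tumor library 3. All nuclear-encoded points lie above 0, between 0.019 and 0.84, and all mitochondrially encoded points lie below 0.

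Subunits encoded by mitochondrial DNA join the nuclear-encoded ones in complexes I, III, IV and V. Of the 13 such genes 8 were higher in tumor and 0 lower, beside 31.6% higher and 27.0% lower among all tested genes. For complex IV the ratio of nuclear-encoded to mitochondrially encoded summed TPM was 0.159 and 0.0733 in tumor libraries 2 and 3 and 0.234, 0.174 and 0.262 in lung libraries 1, 2 and 3 (exact permutation p = 0.1). For complex I it was 0.204 and 0.0869 in tumor and 0.135, 0.108 and 0.157 in lung, with the lung values inside the range of the 2 tumor values (exact permutation p = 1.0).

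Promoters were read for shared motifs because most tested members were higher in tumor, though 22 of 89 were not called and 2 were lower. Most also had more TPM in tumor library 2 than in tumor library 3. RefSeq promoter windows on GRCm38.p6, 250 bases before to 50 after the start site, were found for 76 of the 97 members. The motifs searched on both strands were GCGCATGC for NRF1, CCGGAAG for ETS factors such as GABP, AAGATGGC for YY1 and AAGGTCA for estrogen-related receptors, factors known to act on nuclear genes of the respiratory chain. NRF1 letters stood in the windows of 12 members (15.8%) and in 3.05% of all 27025 genes with a window, or 5.68% of tested genes. YY1 letters stood in 11 members (14.5%, against 3.19% of all genes and 5.12% of tested genes), ETS letters in 19 (25.0%, against 9.93% and 19.7%) and estrogen-related receptor letters in 8 (10.5%, against 5.38% and 4.06%). Between members that were higher and members not called the counts were 7 of 53 and 5 of 20 for NRF1, 12 and 7 for ETS, 9 and 2 for YY1, and 3 and 5 for estrogen-related receptors. The NRF1 core and its reverse complement share 6 letters where they overlap, and such a palindrome is 1 stretch.

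The windows of 6 members are shown to set genes with wide differences beside genes that were not called, each written 5′ to 3′ on the gene's own strand with motif letters in capitals. Atp5g1, the widest increase, and Atp5b, the highest level, hold none of the 4 motifs in these windows (chr11:96075582-96075881, minus strand, and chr10:128083057-128083356, plus strand). Atp5g2 (chr15:102670998-102671297, minus strand) holds the NRF1 palindrome 42 bases before its start, and Ndufc1 (chr3:51408906-51409205, minus strand) holds the YY1 letters at base 23 after it. Atp5l (chr9:44920693-44920992, minus strand) and Sdhb (chr4:140961021-140961320, plus strand), neither of them called, hold 4 and 2 matches. Other members not called, such as Sdha, Ndufa1 and Cox5b, hold none in their windows. The 6 windows are examples and give no contrast between members that were higher and members not called.
Atp5g1: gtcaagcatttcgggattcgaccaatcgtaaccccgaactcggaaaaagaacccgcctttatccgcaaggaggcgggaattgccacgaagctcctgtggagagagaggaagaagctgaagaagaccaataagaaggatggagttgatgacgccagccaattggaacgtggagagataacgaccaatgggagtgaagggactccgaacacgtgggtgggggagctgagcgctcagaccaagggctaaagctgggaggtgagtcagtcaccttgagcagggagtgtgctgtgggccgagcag
Atp5b: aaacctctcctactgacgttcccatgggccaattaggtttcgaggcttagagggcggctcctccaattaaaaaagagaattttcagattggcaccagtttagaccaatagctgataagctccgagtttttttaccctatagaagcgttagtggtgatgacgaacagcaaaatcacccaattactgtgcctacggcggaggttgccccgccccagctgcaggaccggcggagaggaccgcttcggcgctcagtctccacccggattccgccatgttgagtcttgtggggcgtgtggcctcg
Atp5g2: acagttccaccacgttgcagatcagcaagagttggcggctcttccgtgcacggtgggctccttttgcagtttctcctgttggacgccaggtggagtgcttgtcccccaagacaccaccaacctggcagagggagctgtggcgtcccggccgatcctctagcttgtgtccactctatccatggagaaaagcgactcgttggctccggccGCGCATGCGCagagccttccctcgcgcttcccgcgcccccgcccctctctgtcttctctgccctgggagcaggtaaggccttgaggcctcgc
Ndufc1: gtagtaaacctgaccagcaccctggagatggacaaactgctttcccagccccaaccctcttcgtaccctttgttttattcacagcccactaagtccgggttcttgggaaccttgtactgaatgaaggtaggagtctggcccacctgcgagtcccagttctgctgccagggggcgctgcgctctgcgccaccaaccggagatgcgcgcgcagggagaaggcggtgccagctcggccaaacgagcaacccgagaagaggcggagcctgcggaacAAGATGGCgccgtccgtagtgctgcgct
Atp5l: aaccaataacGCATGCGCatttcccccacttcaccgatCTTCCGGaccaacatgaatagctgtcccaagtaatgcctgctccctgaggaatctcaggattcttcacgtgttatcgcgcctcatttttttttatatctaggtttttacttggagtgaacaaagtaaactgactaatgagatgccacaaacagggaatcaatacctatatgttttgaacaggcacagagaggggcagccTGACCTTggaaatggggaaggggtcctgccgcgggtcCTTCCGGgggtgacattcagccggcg
Sdhb: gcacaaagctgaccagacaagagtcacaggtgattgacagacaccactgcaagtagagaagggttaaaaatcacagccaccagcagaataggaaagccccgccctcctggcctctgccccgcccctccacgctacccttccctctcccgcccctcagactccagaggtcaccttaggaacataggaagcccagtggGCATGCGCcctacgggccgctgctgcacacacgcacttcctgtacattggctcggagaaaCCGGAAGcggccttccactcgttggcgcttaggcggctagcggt
A match is a description of letters only, and a window with none says only that these letters are not in it.

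Of the regulators of mitochondrial gene expression 5 of 14 tested were higher (35.7%, near the 31.6% of all tested genes) and 2 lower, with a median of 0.13. Tfam, which packages mitochondrial DNA and starts its transcription, was higher at 23.3 and 20.5 TPM in tumor and 7.41, 6.78 and 5.99 TPM in lung (adjusted p = 0.00202), as were the mitochondrial helicase Twnk (3.95-fold) and the single-strand binding protein Ssbp1 (3.33-fold). Of the nuclear transcription factors Nrf1, Gabpa, Esrra and Yy1 none passed the test, and Gabpb1, the partner of Gabpa, was lower (adjusted p = 0.0278). Nrf1 had 17.0 and 18.7 TPM in tumor and 20.8, 27.2 and 26.1 TPM in lung (adjusted p = 0.0931), Gabpa overlapped (adjusted p = 0.765), and Esrra had 24.9 and 23.9 TPM in tumor and 28.0, 28.4 and 34.3 TPM in lung (adjusted p = 0.177). The coactivators Ppargc1a and Ppargc1b were below 1 TPM in every library and were not tested. Polg2, the accessory subunit of the mitochondrial DNA polymerase, was lower at 2.30 and 4.95 TPM in tumor and 12.4, 18.01 and 16.7 TPM in lung (adjusted p = 0.00637).

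Assembly factors outside the symbol rule were counted by complex, without a test between complexes and beside the 31.6% higher and 27.0% lower among all tested genes. For complex I 4 of 9 were higher and 2 lower, with Timmdc1 at 12.8 and 12.6 TPM in tumor and 7.17, 6.55 and 7.64 TPM in lung (adjusted p = 0.0123) and Foxred1 at 7.49 and 6.79 TPM in tumor and 11.8, 14.0 and 12.3 TPM in lung (adjusted p = 0.0143). Complex II had Sdhaf4 higher (4.33-fold), while Sdhaf2, which attaches flavin to Sdha, overlapped at 25.8 and 23.6 TPM in tumor and 25.5, 24.7 and 22.4 TPM in lung. For complex III 4 of 6 were higher, led by Uqcc2 at 148 and 90.6 TPM in tumor and 25.6, 16.2 and 17.4 TPM in lung (adjusted p = 0.00257). For complex IV 11 of 24 were higher and 2 lower, the smallest p values being those of Cmc1 (3.53-fold), Cox20 (2.69-fold) and Pet117 (2.79-fold). All 4 genes listed for complex V were higher. Among these 4 was Atpif1, whose product blocks ATP hydrolysis by the synthase, at 164 and 128 TPM in tumor and 41.3, 31.5 and 27.2 TPM in lung (2.11, adjusted p = 0.00212).

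Other mitochondrial genes give the setting of the chain, counted beside the 31.6% higher and 27.0% lower among all tested genes. Of 78 mitochondrial ribosomal protein genes 67 were higher and 1 lower, with a median of 1.49, and they summed to 3069.9 and 2541 TPM in tumor and 1353, 1214 and 1234 TPM in lung. In the TCA cycle 14 of 18 enzymes were higher and 0 lower, with Idh3a at 27.9 and 24.6 TPM in tumor and 4.59, 3.39 and 4.28 TPM in lung (adjusted p = 0.00125) and Idh2 7.13-fold higher. Electron carriers and other enzymes that feed ubiquinone had 6 of 8 higher, among them Etfa (adjusted p = 0.00166) and cytochrome c, Cycs, at 9.06 and 6.38 TPM in tumor and 3.27, 2.26 and 2.99 TPM in lung (adjusted p = 0.0115). Of 10 carriers and pores 6 were higher and 1 lower. Slc25a4, an ADP/ATP carrier, was 17.9-fold higher, at 236 and 179 TPM in tumor and 13.1, 12.8 and 9.06 TPM in lung (adjusted p = 0.000901), and Vdac1, the outer membrane pore, was 7.51-fold higher. Ucp2, an uncoupling protein family member abundant in leukocytes, was lower at 116 and 235 TPM in tumor and 1177, 1373 and 1154.5 TPM in lung (adjusted p = 0.00217).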

How the data were processed

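RNA of 2 tumor and 3 lung libraries was compared. Per the series' design text, Salmon 0.9.1 with GENCODE mouse M24 transcripts was the authors' quantification, deposited as TPM. Reads shared by near-identical transcripts are split by its model, and TPM is a share without depth, so precision comes from the spread between libraries only. The deposited table has 55276 rows, of which 26 bear spreadsheet dates in place of symbols and were left out. Deposited p-values and adjusted p-values of the authors' own comparison serve to describe their calls and nothing else.

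Differences were fitted on log2(TPM + 1) for 16387 genes averaging 1 TPM or more, with limma 3.58.1 in R 4.3.3 (empirical Bayes with trend, all 5 libraries, two-sided). A call required 1.5-fold and, after Benjamini-Hochberg adjustment, p under 0.05, the limits of the design text. The fit was tested on simulated data. Summed TPM and log2 isoform ratios (0.1 TPM added) were compared by exact two-sided permutation of the tissue labels over libraries (10 arrangements). Copies were searched with blastn 2.17.0 and GENCODE M21 on GRCm38, matched by symbol for 95 of 97 members. Coordinates of genes are of that annotation and promoters are RefSeq windows.

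The members and lists were chosen with earlier results of these data known. Named genes are, per class, those with the highest mean TPM and the widest differences, members called against the majority, isoform pairs, Sdh genes, members not called, and from other lists up to 4 genes with the smallest p and a fixed set of regulators. Other genes were named after their values were seen, and some that the rule takes are left out. Alternatives were other pseudocounts, filters, scalings, limma settings, fold limits, the title number as a block, single libraries left out, and, added after seeing the data, copies summed with members and added to complex shares, sums of complexes V and II without Atp5b and Sdha, and other constants in isoform ratios.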

Additional observations from a re-analysis of the deposited data

How the results depend on the processing

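Under every alternative below, the members called are of 89 tested unless a filter changed that number. Members called higher ranged from 50 (libraries centred on their median) to 69 (TPM without mitochondrially encoded genes). That range leaves out centring on other genes and leaving out a library. Of all tested genes 27.25% and 33.98% were higher in these 2 fits. Centred on pan-leukocyte genes 87 were higher and 0 lower, where 13701 of all 16387 tested genes were higher and 141 lower. Centred on mitochondrial ribosomal protein genes 2 were higher and 24 lower, where 1439 of all tested genes were higher and 9293 lower. Leaving out 1 library each time gave 33 (without tumor library 2) to 68 (without lung library 1) higher and 0 to 2 lower. Members called lower were 1 with no filter, without mitochondrially encoded genes, with quantile normalisation and under a replicate block on the title number, and 0 with a filter of 5 TPM. That filter left out both Cox4i2 and Cox6b2, with means of 3.774 and 3.885 TPM, so neither could be called there. That replicate block left 58 higher, beside 22.35% of all tested genes. The 2 shared numbers are not known to pair the libraries (Pearson correlation of library 2 minus library 3 across genes, tumor with lung, 0.051).

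Directions that turned were those of genes near 0 or of a rescaling. Centred on the median, Cox7a2l was at -0.19, Ndufa3 at -0.16 and Ndufs1 at -0.045. Under quantile normalisation Sdha was at 0.19. Centred on pan-leukocyte genes, Atp5l was at 2.99, Cox4i2 at 1.47, Cox6b2 at 1.39, Ndufaf7 at 2.58 and Sdha at 3.04. Centred on mitochondrial ribosomal protein genes, the differences were -0.030 for Atp5b, -1.10 for Atp5e, -0.62 for Atp5j, -0.46 for Atp5k, -0.29 for Cox4i1, -0.87 for Cox5b, -0.62 for Cox6a1, -0.78 for Cox6b1, -0.41 for Cox7a2, -1.43 for Cox7a2l, -0.17 for Cox7b, -0.61 for Cox8a, -0.91 for Ndufa1, -0.37 for Ndufa10, -1.39 for Ndufa3, -1.05 for Ndufa6, -0.90 for Ndufa8, -0.83 for Ndufaf3, -0.91 for Ndufb11, -1.13 for Ndufb4, -0.76 for Ndufb9, -1.28 for Ndufs1, -1.12 for Sdhb, -1.22 for Sdhd and -1.12 for Uqcrh. Relative to the summed mitochondrial ribosomal protein genes, complex I was at -0.053, complex II at -1.04, complex IV at -0.20 and the Ndufaf genes at -0.0055. These ratios overlapped between the tissues for complexes I and IV and the Ndufaf genes, and did not for complex II. Centring subtracts the same value from every gene of a library, so it shifts every gene's difference by the same amount. Why the reference genes differed between the tissues was not tested.

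With 1 library left out each time, differences ranged from -0.066 to 0.079 for Cox7a2l, from -0.12 to 0.18 for Ndufa3, from -0.11 to 0.72 for Ndufb4, from -0.060 to 0.36 for Ndufs1 and from -0.018 to 0.23 for the complex II sum. Depth is unknown from TPM, so no counting error is given, and with 2 tumor libraries an exact p cannot go below 0.1.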
